A study of Mus musculus with 10 samples.

Results

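Cells make cholesterol and long-chain fatty acids from the same small precursor, acetyl-CoA, and both routes answer to SREBP transcription factors. The factors are held in the endoplasmic reticulum by the escort protein Scap and the retention protein Insig1. When membrane sterol falls, Scap carries them to the Golgi for cleavage, and the released fragment enters the nucleus. Srebf2 encodes the factor that mainly drives the sterol enzymes and Srebf1 the one that mainly drives fatty-acid synthesis and desaturation, whose unsaturated products enter membrane phospholipids.

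The genes described here are 31 genes of these routes among 48709 listed in each table, 21 in a sterol arm and 10 in a fatty-acid arm. They were chosen by their known function in sterol and fatty-acid synthesis and desaturation, with results from the expected counts of these same 10 libraries in view, and no numeric threshold was applied. Counts of members that passed a test are therefore a description of the list and not independent support for it. All 31 passed the filter on low counts in every comparison.

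The study profiled RNA from supporting cells, the non-sensory cells that surround hair cells in the utricle, a balance organ of the inner ear. Utricles of mice at postnatal day 21 were cultured, and supporting cells were sorted by the fluorescence of an Lfng reporter transgene, so each library is a bulk sample of what that promoter labels. DMSO d5 cultures (3 libraries) had received 0.1% DMSO for 5 days, and TRULI d5 cultures (3 libraries) 10 µM TRULI, an inhibitor of the Lats kinases of the Hippo pathway, in the same solvent. DMSO d10 and TRULI d10 cultures (2 libraries each) had the same 5 days followed by 5 days of recovery with neither, so that every group shares the explant culture, the transgene and exposure to the solvent. The methods speak of biological replicates without naming the animals, and p-values here measure the spread between these libraries.

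The sample labels and the deposited file names disagree on the condition of 4 of the 10 libraries, and this reaches every treatment comparison. Pair A was labelled TRULI d5 replicates 1 and 2 and deposited as DMSO d10 replicates 1 and 2. Pair B was labelled DMSO d10 replicates 1 and 2 and deposited as TRULI d5 replicates 2 and 3. The other 6 libraries, which are the 3 DMSO d5 libraries, the library labelled TRULI d5 replicate 3 and the 2 TRULI d10 libraries, carry the same condition in both. Each comparison is given by label first and then by deposited name.

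The tables sum to between 2463872 and 6255149 expected counts, and 3 counts correspond to between 0.473 and 1.17 CPM (counts scaled to library depth). These floors cover counting error only. Pair A and the TRULI d10 libraries stand apart from the rest. The share of counts from the mitochondrial ribosomal RNA mt-Rnr2 was 1.45% to 2.53% in them, against 13.0% to 26.4% in the other 6. All 9 supporting-cell markers had counts in all 10 libraries, and their summed level was 4441 to 7306 CPM in those 4 libraries and 8330 to 13775 CPM in the other 6. Of the macrophage markers C1qa, C1qb, C1qc and Cx3cr1 were at 0 in every library, of the melanocyte markers Tyr, Tyrp1 and Mlana, and of the adipocyte markers Plin1, Cidec and Lep. Of the same lists, the macrophage marker Cd68 had counts in all 10 libraries (0.876 to 18.1 CPM, at most 89 counts) and the melanocyte marker Pmel as well (0.358 to 14.3 CPM). Lyz2 reached 25 counts and was at 0 in 7 libraries, and Lpl reached 90 counts (15.8 CPM) and was at 0 in 8. In bulk samples fewer cells of a type and less RNA per cell cannot be told apart.

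The promoters of the genes that the results below turn on are shown first. RefSeq windows of 300 bases, from 250 before to 50 after the start of transcription (build GRCm38.p6), were found for 24 of the 31 members, and Fdps, Fdft1, Sqle, Stard4, Scd1, Scd2 and Fads1 had none in the table used. Capitals mark the sterol regulatory element TCACNCCAC and the CCAAT box, each searched on both strands, so that ATTGG is a CCAAT box on the opposite strand. Hmgcs1, which makes the precursor of mevalonate, is shown for its sterol element (chr13:119690101-119690400, plus strand). The next 3 are shown because their RNA was lower by deposited name in the 10-day libraries than in the 5-day libraries: Insig1 (chr5:28071162-28071461, plus strand), the fatty-acid synthase gene Fasn (chr11:120824498-120824797, minus strand) and the desaturase gene Fads2 (chr19:10101454-10101753, minus strand). The last 2 are shown because their RNA was higher there: Srebf2 (chr15:82147019-82147318, plus strand) and Acly (chr11:100527951-100528250, minus strand), whose product makes acetyl-CoA from citrate.
Hmgcs1: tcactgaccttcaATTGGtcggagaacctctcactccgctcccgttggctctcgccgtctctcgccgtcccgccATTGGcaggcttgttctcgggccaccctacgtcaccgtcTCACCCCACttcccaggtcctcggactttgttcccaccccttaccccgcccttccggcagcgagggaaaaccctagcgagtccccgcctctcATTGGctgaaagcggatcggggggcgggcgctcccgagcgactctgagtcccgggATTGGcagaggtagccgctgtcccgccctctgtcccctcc
Insig1: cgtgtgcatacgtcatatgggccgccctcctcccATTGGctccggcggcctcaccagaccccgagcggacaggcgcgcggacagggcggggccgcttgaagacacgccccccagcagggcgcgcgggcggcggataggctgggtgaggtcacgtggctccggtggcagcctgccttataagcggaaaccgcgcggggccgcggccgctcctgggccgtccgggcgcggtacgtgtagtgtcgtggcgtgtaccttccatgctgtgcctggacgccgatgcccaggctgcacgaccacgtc
Fasn: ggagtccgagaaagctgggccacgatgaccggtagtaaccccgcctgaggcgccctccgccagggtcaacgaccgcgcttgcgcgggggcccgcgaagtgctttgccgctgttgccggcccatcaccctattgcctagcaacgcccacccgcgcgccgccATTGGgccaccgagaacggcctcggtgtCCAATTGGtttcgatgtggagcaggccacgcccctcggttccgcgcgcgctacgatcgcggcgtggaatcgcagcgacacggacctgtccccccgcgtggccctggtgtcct
Fads2: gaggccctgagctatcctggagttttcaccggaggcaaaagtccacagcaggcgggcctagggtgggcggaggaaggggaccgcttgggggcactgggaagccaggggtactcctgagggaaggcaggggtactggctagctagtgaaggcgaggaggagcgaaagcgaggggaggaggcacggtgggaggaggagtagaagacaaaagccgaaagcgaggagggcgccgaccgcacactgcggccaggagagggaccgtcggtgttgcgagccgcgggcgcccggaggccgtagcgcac
Srebf2: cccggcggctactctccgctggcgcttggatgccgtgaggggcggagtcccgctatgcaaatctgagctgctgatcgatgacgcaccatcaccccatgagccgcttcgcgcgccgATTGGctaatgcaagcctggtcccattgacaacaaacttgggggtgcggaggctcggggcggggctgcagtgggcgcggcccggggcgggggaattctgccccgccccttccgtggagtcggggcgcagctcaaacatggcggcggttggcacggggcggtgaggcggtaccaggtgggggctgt
Acly: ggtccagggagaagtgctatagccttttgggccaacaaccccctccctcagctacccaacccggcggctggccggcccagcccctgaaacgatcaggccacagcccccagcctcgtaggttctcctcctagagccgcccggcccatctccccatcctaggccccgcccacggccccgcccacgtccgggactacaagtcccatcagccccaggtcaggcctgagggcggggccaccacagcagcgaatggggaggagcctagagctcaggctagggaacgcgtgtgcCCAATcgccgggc

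The sterol element was found in 1 of 17 sterol-arm genes with a window, Hmgcs1, where it begins 137 bases before the start, and in 0 of 7 fatty-acid genes. It occurred in 388 of 27025 genes overall (1.44%). The CCAAT box, the element bound by NF-Y, was in 16 of 17 sterol-arm genes (94.1%), in 4 of 7 fatty-acid genes (57.1%) and in 41.1% of all genes. The Sp1 box GGGCGG had the same counts in the 2 arms, 16 of 17 and 4 of 7, and was in 38.2% of all genes. Fads2 had neither the sterol element nor a CCAAT box in its window, Insig1 had 1 CCAAT box 216 bases upstream, and Fasn had 3, of which 1 on each strand overlap. The CCAAT box did not tell the genes shown that rose from those that fell: Srebf2 and Acly each had 1, as Insig1 did. Srebf2 had 5 Sp1 boxes and Acly 4, against 3 in Insig1, 1 in Fads2 and 0 in Fasn. Among called genes not shown, Ebp, which rose, had 1 Sp1 box and Sc5d, which fell, had 4. A match describes letters and is not evidence of binding. Only the exact letters given were searched, and only within these windows. Sites that differ from the pattern by a base were not counted. A gene without a match is therefore not shown to lack a sterol element, in its window or outside it.

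Per length, the fatty-acid arm held the highest member by far. The mean over 10 libraries, in FPKM (fragments scaled to gene length and library depth), was 1209 for Scd2, a stearoyl-CoA desaturase that makes monounsaturated fatty acids, with a range of 837 to 1828. Fasn followed at 138 FPKM (36.7 to 264), then Scd1, the paralog of Scd2, at 92.3 (23.7 to 265) and Acly at 88.3 (37.3 to 148). The ranges of these 3 overlap and their order differs between groups: Acly was at a mean of 59.6 FPKM and Scd1 at 26.4 in DMSO d5, and in TRULI d10 Acly, at 136 FPKM, was above Scd1 at 65.9 and Fasn at 51.5. In the sterol arm Msmo1, a C4-methyl sterol oxidase, was highest at 149 FPKM, and Srebf2, Tm7sf2, Hmgcs1 and Insig1 followed between 63.8 and 65.6. The lowest were Mvd and Mvk, decarboxylase and kinase of the mevalonate steps, at 5.64 and 3.64 FPKM, and Mvk had 0 counts in TRULI d10 replicate 2. Summed over its members the sterol arm stayed within 1155 to 1667 CPM in all 10 libraries, and the fatty-acid arm, of which Scd2 is the larger part, within 4846 to 9984 CPM. The sterol sum includes Srebf2, which was at 110 to 281 CPM in the libraries deposited as d5 and 283 to 557 CPM in those deposited as d10. Its narrow range therefore does not show that the other sterol members stayed level.

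**Figure D1:**
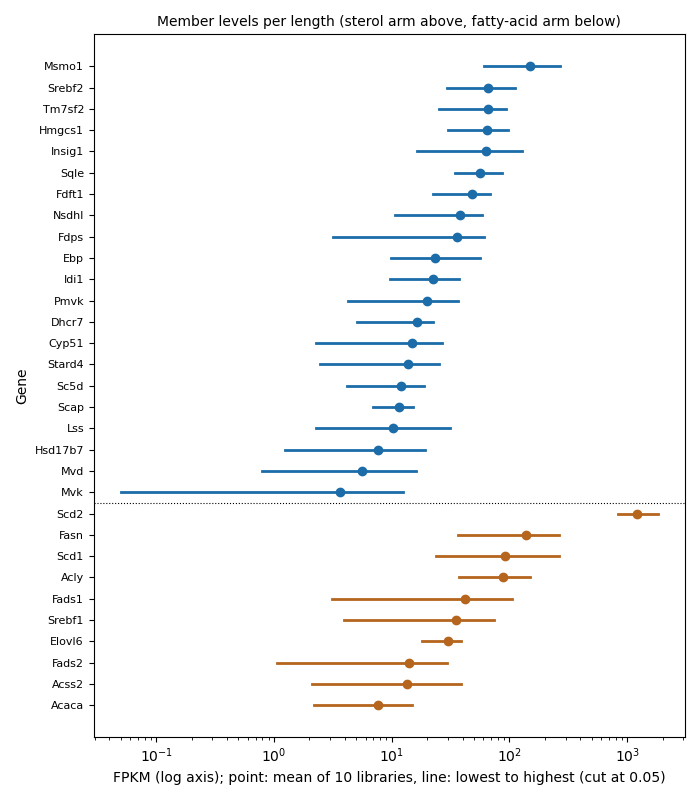
Levels of the 31 members per length, in FPKM on a log axis, as the mean of 10 libraries (point) with the lowest and highest library (line, cut at 0.05). Scd2, at a mean of 1209 FPKM, lies above every other member, and Mvk, at 3.64 FPKM, is the lowest of the sterol arm.

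**Figure D2:**
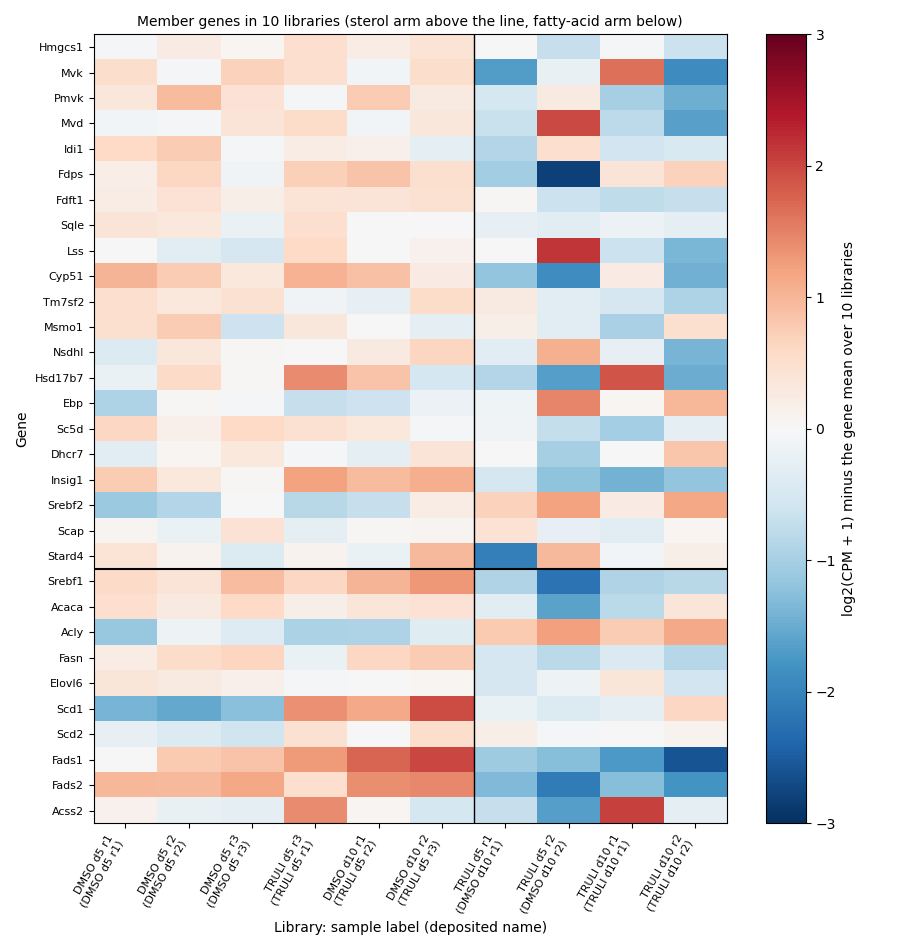
Each member (rows) in each library (columns, sample label with deposited name in brackets), as log2(CPM + 1) minus the gene's mean over 10 libraries, with red above and blue below the mean. The vertical line separates the 6 libraries deposited as d5 from the 4 deposited as d10, where Insig1, Srebf1, Fads1 and Fads2 are blue and Srebf2 and Acly red in every library.

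The comparison of TRULI with DMSO at 5 days asks what the inhibitor does to these genes while it is present. By label no member passed the test, and by deposited name 1 fatty-acid gene rose, Scd1, and no sterol gene did. Scd1, which introduces the first double bond into saturated fatty acids, lies on chromosome 19 (44394455 to 44407879, minus strand; GENCODE M21, GRCm38), near Scd2 (44293674 to 44306864, plus strand).

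Scd1 was at 94.8, 86.9 and 105 CPM in the 3 DMSO d5 libraries and at 651 CPM in the library that label and name both call TRULI d5. It was at 219 and 189 CPM in pair A, at 553 and 988 CPM in pair B, and at 205 and 387 CPM in the TRULI d10 libraries. The DMSO d5 libraries were the 3 lowest of the 10, and the 3 libraries deposited as TRULI d5 were the 3 highest. The TRULI d5 and DMSO d5 libraries thus do not overlap by either grouping. Of all genes tested at 5 days, 18.1% did not overlap by label and 21.3% by name, in either direction. By deposited name the log2 fold change was 2.94 (SE 0.27, 7.67-fold, 3 against 3, adjusted p = 0.00116 in edgeR's quasi-likelihood test). By label it was 1.89 (SE 0.50, adjusted p = 0.328 in the same test), with pair A as 2 of the 3 treated libraries.

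Beside Scd1, Scd2 was at 4389, 3911 and 3421 CPM in DMSO d5, at 7139 CPM in the agreed TRULI d5 library, at 5872 and 5097 CPM in pair A, and at 5181 and 7428 CPM in pair B. The TRULI d5 libraries lie above the DMSO d5 libraries in both groupings, with a log2 fold change of 0.63 (SE 0.41) by label and 0.76 (SE 0.24, adjusted p = 0.131 in edgeR) by name, neither of which passed. The ratio of Scd2 to Scd1 FPKM shows how unequally the pair moved. It was 28.7 to 40.8 in the DMSO d5 libraries, 6.63 to 9.67 in the 3 libraries deposited as TRULI d5, and 12.7 to 23.8 in pair A and the TRULI d10 libraries. Scd1 and Scd2 are paralogs, and whether reads were shared between them in these counts was not tested.

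Fads1, the delta-5 desaturase of the polyunsaturated route, was at 66.2, 116 and 122 CPM in DMSO d5, at 162 CPM in the agreed TRULI d5 library and at 227 and 272 CPM in pair B, whereas pair A was at 31.4 and 26.8 CPM. The libraries labelled TRULI d5 thus lie on both sides of the DMSO d5 libraries, with a log2 fold change of −0.46 (SE 0.66). By name it was 1.13 (SE 0.28, adjusted p = 0.0554 in edgeR). Libraries with the same number in their deposited names deviated together, and with that number as a replicate block 4 members rose by name: Scd1 at 2.91, Fads1 at 1.14, Scd2 at 0.75 and, in the sterol arm, Insig1 at 0.72 on the log2 scale. In that fit 640 of 10984 genes (5.83%) were called higher and 477 (4.34%) lower.

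By label, edgeR called 0 of 21 sterol and 0 of 10 fatty-acid members, against 0.00945% of 10580 tested genes called higher and 0% lower. At an unadjusted p under 0.05 there were 1 sterol and 3 fatty-acid members, against 1450 of the 10580 genes tested. DESeq2 called 1 member by label, against 1.72% of all genes higher and 0.577% lower. By name, 0 sterol genes and 1 fatty-acid gene were called, against 2.18% of 10984 genes higher and 1.14% lower. DESeq2 called 3 members by name, Scd1, Scd2 and Fads1, against 3.79% of all genes higher and 2.53% lower. The median log2 fold change was −0.21 in the sterol arm and −0.48 in the fatty-acid arm by label (all genes 0.04), and 0.04 and 0.25 by name (all genes 0.02). The label result turned on 1 library: without the library labelled TRULI d5 replicate 3, so with pair A as the only treated libraries, 10 members were called, 3 of them higher and 7 lower, while 1179 of 10810 genes (10.9%) were called higher and 895 (8.28%) lower. With only the 4 undisputed libraries the log2 fold change of Scd1 was 2.74, where the lone treated library is assumed to vary as the controls do.

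**Figure D3:**
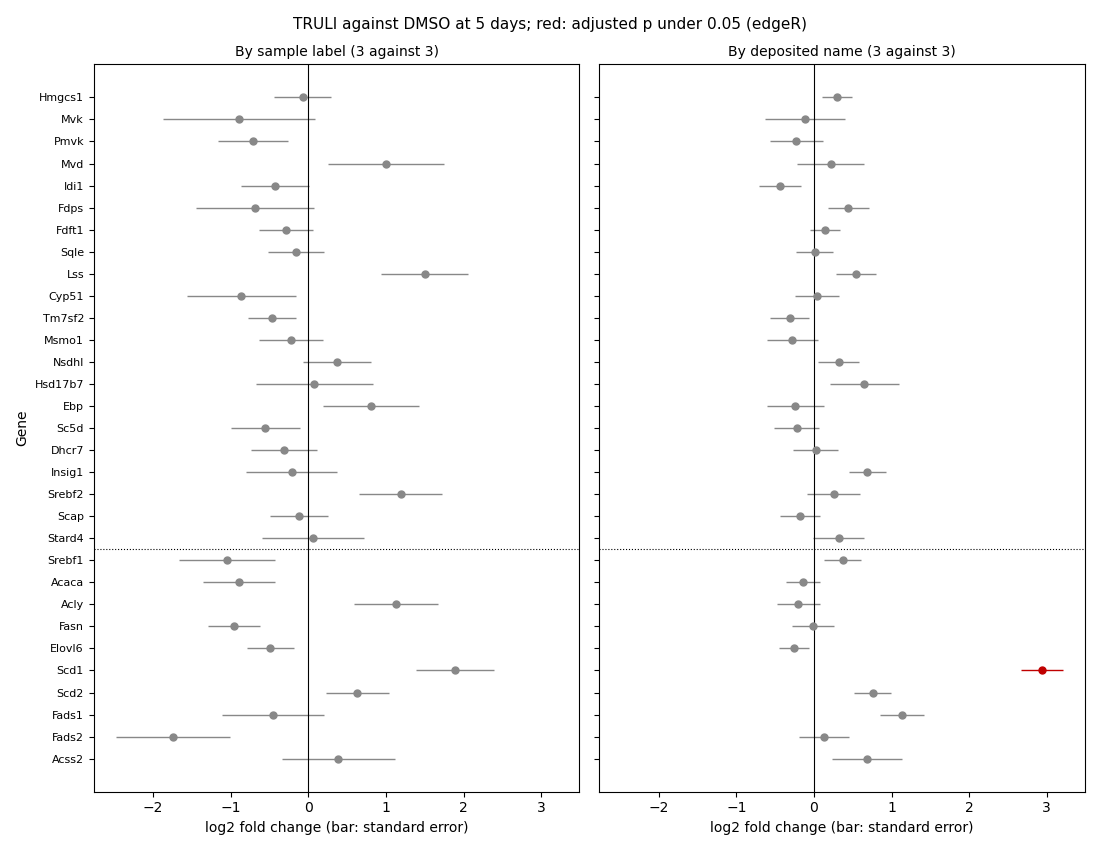
Log2 fold change (point) and standard error (bar) of each member for TRULI against DMSO at 5 days, by sample label on the left and by deposited name on the right, 3 libraries against 3, with members past adjusted p 0.05 in red. Scd1 at 2.94 on the right is the only red point in either panel.

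Few of the other genes of these routes were called at 5 days. By label none of 20 sterol-branch, 14 sterol-export and 27 fatty-acid synthesis genes outside the members was called by edgeR, with 3, 2 and 2 at an unadjusted p under 0.05. Over all genes tested by label, 1450 of 10580 were at that unadjusted p. By name, Lcat, which esterifies cholesterol in lipoproteins, fell by 2.59 on the log2 scale (SE 0.60, adjusted p = 0.0424 in edgeR) as 1 of 14 export genes tested. Scd4, a further stearoyl-CoA desaturase paralog, rose by 3.17 (SE 0.64, adjusted p = 0.0251 in edgeR) and Acsl1, an acyl-CoA synthetase, fell by 1.20 (SE 0.26, adjusted p = 0.0333 in edgeR), the 2 called of 28 fatty-acid synthesis genes tested. Against these counts stand the 2.18% of all genes called higher and 1.14% lower. At an unadjusted p under 0.05 by name there were 3 of 20 sterol-branch, 3 of 14 export and 8 of 28 synthesis genes, against 1801 of all 10984 genes tested. The synthesis list summed to 3063 to 3115 CPM in DMSO d5 and to 2290 to 2628 CPM in the libraries deposited as TRULI d5, without overlap. Hair-cell markers moved in the same comparison by name, with 1 of 9 tested called higher (Espn) and a summed level of 153 to 245 CPM in DMSO d5 and 199 to 840 CPM in the libraries deposited as TRULI d5. Postn was the 1 of 3 tested mesenchyme markers called higher, with sums of 20.4 to 39.0 and 43.7 to 117 CPM. Schwann-cell and myelin markers summed to 314 to 431 CPM in DMSO d5 and 164 to 273 CPM in the libraries deposited as TRULI d5. Of 3 tested, 2 were lower without overlap, against 21.3% of all genes without overlap in either direction. Macrophage markers summed to at most 2.61 CPM in DMSO d5 and to 7.48 to 10.6 CPM in the libraries deposited as TRULI d5. The part of any of these markers in the Scd1 result was not tested.

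The withdrawal comparison asks which differences remained 5 days after the inhibitor was removed. By label, 4 members fell: the retention gene Insig1 in the sterol arm, and Srebf1, Fads1 and Fads2 in the fatty-acid arm. By deposited name none was called. Fads2, the delta-6 desaturase that takes the first step of the polyunsaturated route, and Fads1 are neighbours on chromosome 19 (Fads2 at 10062765 to 10101746, minus strand, and Fads1 at 10182888 to 10196877, plus strand).

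Fads2 was at 3.33 and 2.03 CPM in the TRULI d10 libraries, at 26.6 and 27.2 CPM in pair B, which the labels give as their control, and at 3.16 and 1.43 CPM in pair A, which the deposited names give as their control. Against pair B the TRULI d10 libraries are far lower without overlap, and against pair A they overlap. Of all genes tested, 58.2% did not overlap between TRULI d10 and pair B, in either direction. The log2 fold change was −3.30 by label (SE 0.63, 9.88-fold lower, 2 against 2, adjusted p = 0.0473 in edgeR) and 0.22 by name (SE 1.13). Fads1 behaved in the same way, at 19.5 and 10.2 CPM in TRULI d10 against 227 and 272 CPM in pair B and 31.4 and 26.8 CPM in pair A. Its log2 fold change was −4.07 by label (SE 0.46, 16.7-fold lower, adjusted p = 0.0307 in edgeR) and −0.96 by name (SE 0.65).

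Insig1 was at 36.8 and 43.5 CPM in TRULI d10, at 194 and 215 CPM in pair B and at 69.3 and 42.9 CPM in pair A. Srebf1, the SREBP gene of the fatty-acid arm, was at 41.4 and 43.1 CPM in TRULI d10, at 158 and 194 CPM in pair B and at 41.5 and 16.1 CPM in pair A. Between pair A and pair B as controls, both genes are thus low in TRULI d10 against pair B only. By label they fell by 2.35 (SE 0.36, adjusted p = 0.0364) and 2.06 (SE 0.36, adjusted p = 0.0444) in edgeR's quasi-likelihood test, and by name their log2 fold changes were −0.47 (SE 0.52) and 0.56 (SE 0.61).

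By label the calls were 0 higher and 1 lower of 21 sterol genes and 0 higher and 3 lower of 10 fatty-acid genes, against 0.942% of 11469 genes higher and 1.03% lower. By name edgeR called 0 members, as it called 0% of 10845 genes in each direction, and DESeq2 also called 0. Of the members, 4 sterol genes and 1 fatty-acid gene had an unadjusted p under 0.05, against 490 of the 10845 genes tested. In simulated counts with this design 0% of genes changed 4-fold were recovered. The median was −0.47 in the sterol and −0.91 in the fatty-acid arm by label, and −0.23 and 0.25 by name, with 0.01 for all genes in both. With 2 libraries a group single libraries decided the label count, which was 0 without either pair B library, 13 without TRULI d10 replicate 1 (where 11.5% of all genes were called higher and 13% lower) and 8 without TRULI d10 replicate 2 (9.95% higher and 8.43% lower). The direction of Hsd17b7, a 3-ketosteroid reductase of the sterol route that was not called, turned from 0.72 to −1.99 without TRULI d10 replicate 1.

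Of the lists outside the members, by label Nceh1, a cholesteryl-ester hydrolase, rose by 1.93 on the log2 scale (SE 0.35, adjusted p = 0.0444 in edgeR) as 1 of 14 export genes tested, and Acsl1 rose by 2.02 (SE 0.37, adjusted p = 0.0460 in edgeR) as 1 of 28 fatty-acid synthesis genes. By name none was called in any list. Supporting-cell markers moved with the label comparison, 2 of 9 lower (Slc1a3 and Lfng), with sums of 5687 to 6219 CPM in TRULI d10 and 9887 to 10736 CPM in pair B, and with mt-Rnr2 at 1.45% and 2.50% of counts in TRULI d10 and 23.7% and 13.0% in pair B. With mitochondrially encoded genes removed before scaling, the same number of members, 4, was called, which bears on the scaling only. The Schwann-cell and myelin markers summed to 510.3 to 663 CPM in TRULI d10 and to 176 to 273 CPM in pair B. By name, hair-cell markers summed to 151 and 923 CPM in TRULI d10 and to 40.2 and 53.6 CPM in pair A. All 7 of them tested were higher in TRULI d10 without overlap, with a median log2 fold change of 4.14. All 7 had an unadjusted p under 0.05, though edgeR called 0. In that comparison 28.8% of all genes tested did not overlap, in either direction, and 490 of 10845 had an unadjusted p under 0.05. The part of the cell markers in the results was not tested.

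Between the culture times, with treatment as a term in the fit over all 10 libraries, the grouping decides the result. By label no member was called, against 0% of 11918 genes. By deposited name 12 were, 7 in the sterol arm and 5 in the fatty-acid arm, where 18.4% of all genes were called higher and 16.5% lower, so that calls were frequent among all genes and the count is not a result about the members. By name the polyunsaturated desaturases Fads2 and Fads1, Srebf1, Insig1 and Fasn fell, and Srebf2 and Acly rose. A further comparison, of the 2 TRULI d10 with the 3 DMSO d5 libraries, uses no disputed library; in it treatment and culture time cannot be told apart.

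In the fatty-acid arm Fads2 was at 13.8 to 27.2 CPM in the 6 libraries deposited as d5 and at 1.43 to 3.33 CPM in the 4 deposited as d10. Fads1 was at 66.2 to 272 CPM in the former and 10.2 to 31.4 CPM in the latter. Neither overlaps between the times, in the treated or the control libraries. Of all genes tested, 24.3% did not overlap between the times by name, in either direction. By name the log2 fold changes were −3.08 for Fads2 (SE 0.38, 8.45-fold lower, adjusted p = 0.000148) and −2.77 for Fads1 (SE 0.43, 6.83-fold lower, adjusted p = 0.000552) in edgeR's quasi-likelihood test. Between TRULI d10 and DMSO d5 they were −2.95 (SE 0.53, adjusted p = 0.0107) and −2.78 (SE 0.44, adjusted p = 0.00810) in the same test.

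Srebf1 was at 116, 103 and 150.0 CPM in DMSO d5, at 121 CPM in the agreed TRULI d5 library, at 158 and 194 CPM in pair B, at 41.5 and 16.1 CPM in pair A and at 41.4 and 43.1 CPM in TRULI d10. Fasn, the enzyme that builds palmitate, was at 473, 597 and 632 CPM in DMSO d5, 356 CPM in the agreed TRULI d5 library, 623 and 691 CPM in pair B, 287 and 231 CPM in pair A and 300.4 and 223 CPM in TRULI d10. For both the 4 libraries deposited as d10 are the 4 lowest of the 10. Srebf1 fell by 1.99 (SE 0.28, 3.98-fold lower, adjusted p = 0.000285 in edgeR) and Fasn by 1.11 (SE 0.22, 2.17-fold lower, adjusted p = 0.00220 in edgeR) by name. The undisputed comparison gave −1.56 (SE 0.30) and −1.13 (SE 0.28), both called.

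Acly, which supplies acetyl-CoA to both arms, went the other way. It was at 119.8, 239.8 and 202 CPM in DMSO d5, 137 CPM in the agreed TRULI d5 library, 139.7 and 208 CPM in pair B, 459.8 and 622 CPM in pair A and 448 and 590.2 CPM in TRULI d10. Again no library deposited as d10 overlaps with one deposited as d5. By name it rose by 1.61 on the log2 scale (SE 0.22, 3.04-fold, adjusted p = 0.000301 in edgeR), and the undisputed comparison gave 1.46 (SE 0.33, adjusted p = 0.0190 in edgeR). Scd1 rose in the undisputed comparison by 1.61 (SE 0.32, 3.06-fold, adjusted p = 0.0137 in edgeR), with 205 and 387 CPM in TRULI d10 against 86.9 to 105 CPM in DMSO d5. Between the times by name its log2 fold change was −0.02 (SE 0.43).

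**Figure D4:**
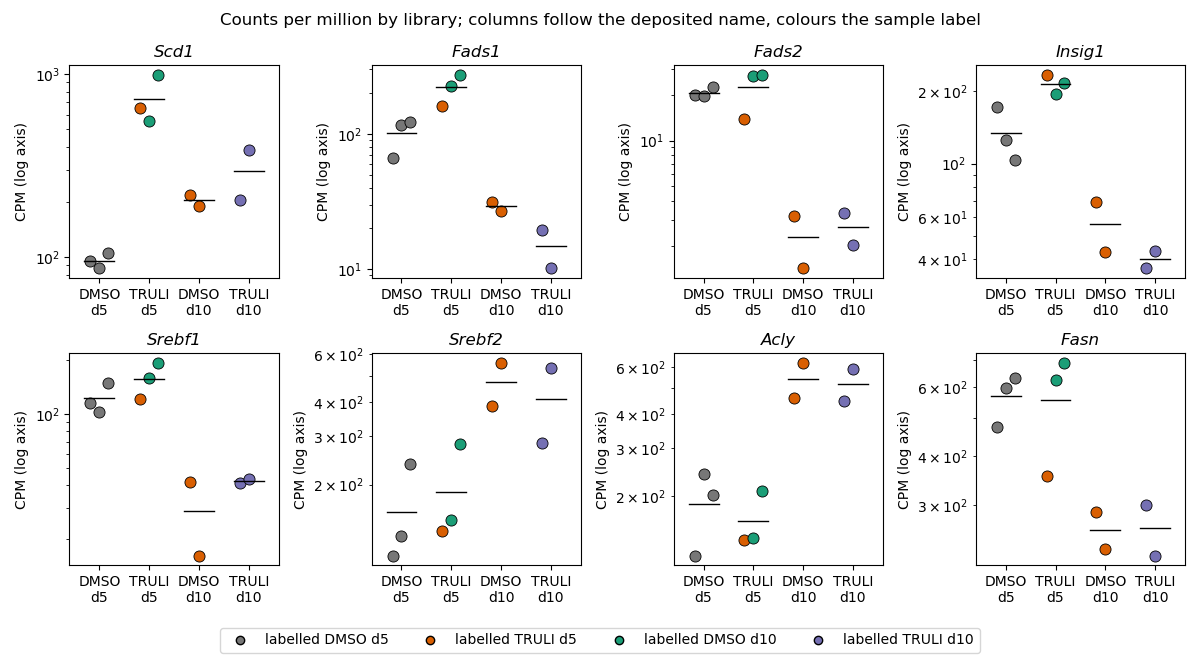
CPM of 8 members in each library on log axes, in columns by deposited name and coloured by sample label, with the mean of each column as a line. Pair A (orange, in the DMSO d10 column) lies with TRULI d10 for Fads1, Fads2, Insig1, Srebf1, Srebf2, Acly and Fasn. Pair B (green, in the TRULI d5 column) lies above every DMSO d5 library for Scd1, Fads1, Fads2, Insig1 and Srebf1.

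In the sterol arm the regulators moved apart. Srebf2 was at 110.0, 129.7 and 238 CPM in DMSO d5, 136 CPM in the agreed TRULI d5 library, 149 and 281 CPM in pair B, 388 and 557 CPM in pair A and 283 and 535 CPM in TRULI d10. The libraries deposited as d10 are the 4 highest, the lowest of them just above the highest d5 library. Srebf2 rose by 1.35 by name (SE 0.29, 2.54-fold, adjusted p = 0.00375 in edgeR) and by 1.35 in the undisputed comparison (SE 0.39, adjusted p = 0.0423 in edgeR).

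Insig1, itself a target of the SREBPs, was at 172, 125 and 104 CPM in DMSO d5 and 233 CPM in the agreed TRULI d5 library, against the 36.8 to 69.3 CPM of pair A and TRULI d10 given above. It fell by 1.81 by name (SE 0.28, 3.52-fold lower, adjusted p = 0.000559 in edgeR) and by 1.75 in the undisputed comparison (SE 0.34, adjusted p = 0.0130 in edgeR). The escort gene Scap had log2 fold changes of −0.04 (SE 0.24) and −0.28 (SE 0.36). The ratio of Srebf2 to Srebf1 FPKM was 0.629 to 1.21 in the 6 libraries deposited as d5 and 5.51, 6.72, 9.99 and 27.9 in the other 4.

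Of the sterol enzymes 4 fell by name and 1 rose. Cyp51, the lanosterol demethylase, fell by 1.69 (SE 0.39, adjusted p = 0.00550 in edgeR), with 41.9 to 73.5 CPM in the libraries deposited as d5 and 14.8, 8.94, 42.1 and 12.4 CPM in those deposited as d10. TRULI d10 replicate 1, at 42.1 CPM, overlaps with the d5 libraries. Pmvk, the second kinase of the mevalonate steps, fell by 1.23 (SE 0.38, adjusted p = 0.0230 in edgeR), from 11.4 to 23.5 CPM to 3.66 to 14.3 CPM, and its ranges overlap as well. Fdft1, squalene synthase, fell by 0.85 (SE 0.21, adjusted p = 0.00768 in edgeR), from 110.3 to 134 CPM to 57.3 to 99.4 CPM, without overlap.

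Sc5d, the lathosterol desaturase, fell by 0.92 (SE 0.30, adjusted p = 0.0321 in edgeR), from 15.6 to 25.1 CPM to 7.36 to 14.7 CPM, without overlap. Ebp, the sterol isomerase, rose by 1.15 (SE 0.36, adjusted p = 0.0252 in edgeR), with 9.40 to 19.3 CPM in the libraries deposited as d5 and 17.0, 53.3, 19.5 and 38.4 CPM in the others, which overlap. In the undisputed comparison Pmvk fell by 2.02 (SE 0.52, adjusted p = 0.0295 in edgeR), Fdft1 by 1.04 (SE 0.28, adjusted p = 0.0328 in edgeR) and Tm7sf2, a sterol reductase, by 1.17 (SE 0.31, adjusted p = 0.0310 in edgeR). Tm7sf2 was at 75.5 to 85.4 CPM in DMSO d5 and at 41.9 and 31.1 CPM in TRULI d10, without overlap. Of all genes tested in that comparison, 53.1% did not overlap, in either direction.

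Of the 14 sterol-arm members not called by name all but Lss and Dhcr7 had log2 fold changes below 0. The values ran from −0.997 (SE 0.44) for Fdps, which makes farnesyl pyrophosphate, to 0.38 (SE 0.59) for Lss, which closes the sterol ring, with Hmgcs1 at −0.56 (SE 0.21) and Sqle, the squalene epoxidase, at −0.45 (SE 0.20). With the number in the deposited name as a replicate block the count was 13, against 17.2% of genes higher and 16% lower in that fit. Hmgcs1 (−0.60, adjusted p = 0.0476 in edgeR) and Sqle (−0.58, adjusted p = 0.0352 in edgeR) were then called, and Sc5d (−0.95, adjusted p = 0.0536 in edgeR) was not. Whether that number pairs libraries across the times was not tested. The isomerase Idi1, the reductases Tm7sf2, Hsd17b7 and Dhcr7, the C4 demethylation genes Msmo1 and Nsdhl, the mevalonate genes Mvk and Mvd, Scap and the sterol carrier Stard4 lay between −0.63 and 0.01. Single libraries were extreme for several of these: pair A's second library had the highest Lss at 188 CPM, the highest Mvd at 26.1 CPM and the lowest Fdps at 2.86 CPM of all 10. In the fatty-acid arm Acaca, the acetyl-CoA carboxylase, was at −0.86 (SE 0.33), the elongase Elovl6 at −0.32 (SE 0.22), Acss2, which makes acetyl-CoA from acetate, at −0.03 (SE 0.54) and Scd2 at 0.10 (SE 0.20).

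By label the count was 0 of 31 against 0% of 11918 genes in each direction by edgeR, and DESeq2 called 0 as well. At an unadjusted p under 0.05 there were 0 sterol genes and 1 fatty-acid gene, against 709 of the 11918 genes tested. By name the count called was 2 higher and 5 lower of 21 sterol genes and 1 higher and 4 lower of 10 fatty-acid genes, against 18.4% of genes higher and 16.5% lower. Between TRULI d10 and DMSO d5 it was 1 higher and 4 lower in the sterol arm and 2 higher and 4 lower in the fatty-acid arm, against 11.5% of 11112 genes higher and 9.03% lower. The medians were −0.49 in the sterol and −0.59 in the fatty-acid arm by name (all genes −0.06), −0.44 and −0.46 in the undisputed comparison (all genes 0.01), and −0.22 and 0.08 by label (all genes −0.01). The comparisons by name and without disputed libraries share 5 libraries, so their values are given side by side only.

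With only the 6 undisputed libraries and treatment as a term, 2 members were called between the times, Insig1 at −2.53 and Fads1 at −3.44. In that fit 1.48% of all genes were called higher and 1.34% lower. The count of 11 in the comparison of TRULI d10 with DMSO d5 fell to 4, 1 and 5 without DMSO d5 replicates 1, 2 and 3. In those fits 3.43%, 1.75% and 4.42% of all genes were called higher and 2.17%, 0.788% and 2.53% lower. When all 10 libraries by label shared the fit 0 members were called, against 0.0671% of all genes higher and 0.0252% lower. The mt-Rnr2 share and the supporting-cell markers (5 of 9 lower by name and 5 of 9 lower in the undisputed comparison, with the sums given above) divide the libraries as these members do. With mitochondrially encoded genes removed the counts were the same, 12 and 11, which bears on the scaling only. What else differs with the mt-Rnr2 share was not tested. Hair-cell markers summed to 153 to 840 CPM in the libraries deposited as d5, to 40.2 and 53.6 CPM in pair A and to 151 and 923 CPM in TRULI d10, and 3 of 9 were called lower by name. Of the Schwann-cell and myelin markers 2 of 4 tested were called higher, with sums of 164 to 431 CPM at d5 and 510.3 to 1123 CPM at d10 by name. Of the mesenchyme markers 1 of 6 tested was called higher by name (Col1a2), with sums of 20.4 to 117 CPM at d5 and 36.0 to 127 CPM at d10, and Pmel, the 1 melanocyte marker tested, was called lower. The part of these markers in the results was not tested.

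**Figure D5:**
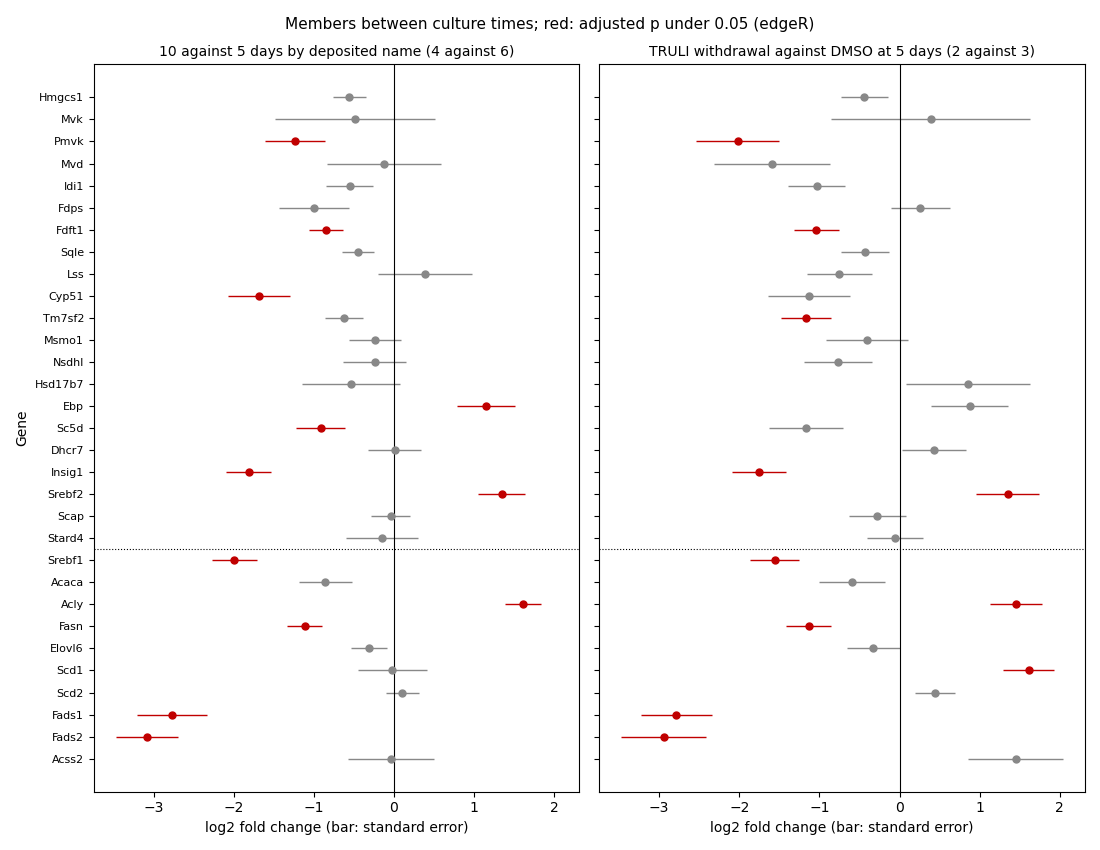
Log2 fold change (point) and standard error (bar) of each member between 10 and 5 days by deposited name (left, 4 libraries against 6, treatment as a term) and between TRULI d10 and DMSO d5 (right, 2 against 3, no disputed library), with members past adjusted p 0.05 in red. Fads1 and Fads2 lie near −3 in both panels, and Srebf2 and Acly lie above 1.

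Genes of the wider pathway were called in both directions by name between the times, against the 18.4% of all genes called higher and 16.5% lower. Of 21 sterol-branch genes outside the members 4 rose and 4 fell, led by Dhdds, which extends isoprenoids to dolichol (1.58, SE 0.23, adjusted p = 0.000391 in edgeR). Insig2, the second retention gene, fell by 1.22 (SE 0.27, adjusted p = 0.00438 in edgeR) by name and by 1.70 (SE 0.36, adjusted p = 0.0168 in edgeR) in the undisputed comparison. Of 14 export and esterification genes 4 rose and 0 fell, among them Nceh1 at 1.81 (SE 0.18, adjusted p = 5.44e-05 in edgeR) and the cholesterol exporter Abca1 at 1.15 (SE 0.22).

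In the undisputed comparison, where 11.5% of all genes were called higher and 9.03% lower, 3 export genes rose and 1 fell, with Abca1 at 1.40 (SE 0.29) and a further exporter, Abcg1, at 1.72 (SE 0.35). Of 28 fatty-acid synthesis genes outside the members 5 rose and 6 fell by name, with Pnpla3, a lipid-droplet hydrolase, at −3.52 (SE 0.85), Acsl5 at −2.45 (SE 0.45) and Gpam, which starts glycerolipid synthesis, at −2.10 (SE 0.69). Fatty-acid oxidation genes counted 4 higher and 11 lower of 24, with Acads, Ehhadh and Acaa2 at −3.13 (SE 0.83), −2.83 (SE 0.77) and −2.56 (SE 0.75). In the undisputed comparison 2 were higher and 8 lower. The summed level of the oxidation list nevertheless was 1989 to 2947 CPM in the libraries deposited as d10 and 1253 to 1678 CPM in the others, so the sum moved against the larger number that fell.

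Whether the TRULI effect itself differed between the times was tested as an interaction. By label and by name 0 of 11918 genes were called by edgeR (0% in each grouping), with 792 and 1110 at an unadjusted p under 0.05, and no other tool was run. For Scd1 the effect after withdrawal minus that at 5 days was −2.38 by name (SE 0.46, adjusted p = 0.197 in edgeR) and −3.24 by label (SE 0.77, adjusted p = 0.588 in edgeR). For Fads1 it was −2.08 by name (SE 0.52) and −3.59 by label (SE 0.98). Neither gene passed, and the difference between times is not shown for any member.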

How the data were processed

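RNA of sorted supporting cells was measured in 10 libraries. Reads had been aligned by the authors with STAR (build GRCm38), who deposited expected counts and an effective length per gene without normalization. The counting program is not given in the sources used here, and the methods and the labels name different library kits. Expected counts were rounded. Symbols and positions came from GENCODE M21 (48349 of 48709 genes matched).

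edgeR 4.0.16 (R 4.3.3) was run on the groups of each comparison with filterByExpr (minimum count 10), TMM scaling and the quasi-likelihood test. Benjamini-Hochberg adjustment was over all protein-coding genes tested, and a gene was called at an adjusted p under 0.05. CPM used TMM factors over all 10 libraries, and FPKM the effective lengths and the protein-coding total. DESeq2 1.42.0, its size factors, no filter, a replicate block, removal of mitochondrially encoded genes, all biotypes, other sets of libraries and leaving out each library were alternatives. The depth ranged from 2463872 to 6255149 counts. No libraries were near-identical (chi-square per degree of freedom at least 15.26). The code was tested on simulated counts in which some genes were changed 4-fold. It recovered 34.6% of them at 5 days by label and 91.2% by name, and 1.02% after withdrawal by label and 0% by name. Between the times it recovered 47.2% by label and 82.2% by name, and between TRULI d10 and DMSO d5 42.1%. With such recovery a count of 0 after withdrawal by name does not show that members were unchanged.

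The members and lists were chosen with earlier results of these data known. All 31 members were named, and of other lists at most the 3 called genes with the largest change per comparison. A few genes of these lists are not reported here. For TRULI against DMSO at 5 days by deposited name, libraries with the same number correlated in their deviations from the group means (0.412, 0.204 and 0.338). The number was therefore taken to pair them, a weak check with 3 libraries a group. The pairing comes from the deposited names, and no source describes it as shared animals.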

Additional observations from a re-analysis of the deposited data

How the results depend on the processing

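The number of members called by label at 5 days (0) became 1 with DESeq2, 2 with no filter and 1 with conditions from deposited names. It was 0 to 10 when single libraries were left out. By deposited name it went from 1 to 3 with DESeq2, 2 with no filter and 4 with the replicate block, and was 1 to 2 when single libraries were left out. Over all genes, DESeq2 called 1.72% higher and 0.577% lower by label and 3.79% and 2.53% by name. With no filter the shares were 3.38% and 0.631% by label and 4.74% and 2.38% by name. With the block by name they were 5.83% and 4.34%. After withdrawal by label the 4 calls became 7 with DESeq2, 8 with no filter, 7 with the replicate block, 0 with all 10 libraries in one fit and 0 by deposited names, and 0 to 13 when single libraries were left out. By name it went from 0 to 2 with no filter (0.929% of all genes higher and 0.273% lower). After withdrawal by label the calls over all genes rose as well, from 0.942% higher and 1.03% lower. They became 7.05% and 5.13% with DESeq2, 6.85% and 4.7% with no filter, and 6.06% and 4.52% with the replicate block. Between the times the label count went from 0 to 1 with no filter, 12 by deposited names and 2 with undisputed libraries only. The name count went from 12 to 2 with undisputed libraries only. Over all genes, 0.596% were called higher and 0.076% lower with no filter by label, and 1.48% and 1.34% with undisputed libraries. By deposited names it was 18.4% and 16.5%. Between TRULI d10 and DMSO d5 the 11 calls became 0 with all 10 libraries in one fit by label, stayed 11 when that fit used deposited names, and were 1 to 15 when single libraries were left out.

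Only members called in at least 1 of the 2 fits compared were checked for a turned direction. With deposited names it turned for Srebf1 (0.56) and Fads2 (0.22) after withdrawal, and for Ebp (1.15), Srebf1 (−1.99) and Fasn (−1.11) between the times. Members called in neither fit changed sign as well: at 5 days 7 sterol genes had a log2 fold change above 0 by label and 13 by name. When single libraries were left out, Hsd17b7 ranged from −1.99 to 1.60 after withdrawal by label and from −1.75 to 1.71 between TRULI d10 and DMSO d5, and Mvk from −6.86 to 1.35 in the latter. The cause was not tested. The fits with undisputed libraries only, and the fit of all libraries by deposited name, were added after seeing the data.

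Replicate numbers of the labels did not pair the libraries at 5 days (correlations −0.175, 0.071 and −0.207). After withdrawal the correlations were 0.222 by label and 0.182 by name. With 2 libraries a group, those of the same and of another number differ only in sign by construction, so pairing could not be decided there. Apart from the counts given above, the replicate block left each count within 1.5 times (12 became 13 between the times by name, and 11 became 8 between TRULI d10 and DMSO d5). A comparison left with 1 library in a group takes that library to vary like the others. With 2 or 3 libraries a group, a member that was not called is not shown to be unchanged.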
